A study of Mus musculus with 28 samples.

Results

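Islet β cells sense glucose by taking it up and phosphorylating it, and 6 genes of that first step were followed here, chosen by name: the glucose transporters Slc2a2 and Slc2a1, the hexokinases Hk1 and Hk2, the glucose-6-phosphatase subunit G6pc2, and Gckr. Of these 6, 5 had a row among the 14219 genes of the expression table, and Gckr was not analysed here. RNA was sequenced from the pancreatic islets of 28 male mice aged 10 to 12 weeks, on a mixed C57Bl6 and 129sv background, with 1 library per mouse made from 120 to 150 islets. Every mouse carried Klf6 flox/flox alleles, which Cre recombinase can delete, and Klf6 encodes a zinc finger transcription factor. The labelled βKlf6KO mice also carried Ins1Cre/+, in which Cre is expressed from the insulin 1 gene in β cells, and the labelled controls were Ins1+/+ and had no Cre. The effect of the deletion and that of carrying the Cre allele therefore cannot be told apart. Mice were given saline (6 control and 6 βKlf6KO) or the insulin receptor antagonist peptide S961 (8 control and 8 βKlf6KO). Whole islets hold several cell types, so fewer cells of a type and less RNA per cell cannot be told apart.

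The mouse β cell takes up glucose mainly through GLUT2, the product of Slc2a2, a transporter of high capacity and low affinity that lets intracellular glucose follow the blood. GLUT1, the product of Slc2a1, and the high-affinity hexokinases HK1 and HK2 serve basal glucose use in most other tissues, and the mature β cell keeps Hk1 low. G6PC2, found almost only in islets, removes the phosphate again and so opposes the hexokinases in a cycle between glucose and glucose 6-phosphate.

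The libraries held 28868638 to 45001633 reads over the listed genes, and levels are given as log2 CPM, the log2 of a read count scaled to its library size. A gene was called when its adjusted p in limma, with Benjamini-Hochberg adjustment over 13591 tested genes, was below 0.05. Klf6 itself averaged 7.0 ± 0.43 (SD, n = 6) in control saline islets, 6.94 ± 0.72 (n = 8) in control S961, 6.97 ± 0.26 (n = 6) in βKlf6KO saline and 7.22 ± 0.52 (n = 8) in βKlf6KO S961. It did not follow the genotype labels, and the labels do not say which part of the gene is floxed, so the groups are called by their labels throughout. The first principal component of all tested genes held 54.88% of the variance, and its gene loadings followed transcript GC content (Spearman rho -0.84 across 13584 genes, not independent of each other). The 3 libraries with the highest scores were labelled control S961 replicate 2, control saline replicate 4 and control S961 replicate 8. The β-cell markers Ins1 and Ins2 had at least 125495 and 150690 reads in every library, but their level was not even. Ins2 was at 5078, 9151 and 12160 CPM in those 3 libraries, in the same order, and at 19050 to 154400 CPM in the others. Both genes are part of the β-cell reference used below.

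The 5 genes spanned a wide range of levels in these islets. Per kilobase of transcript, the median over 28 libraries was 10.65 log2 CPM for G6pc2, 7.13 for Slc2a2, 2.10 for Slc2a1, 1.03 for Hk1 and -1.74 for Hk2. The ranges per kilobase were 10.09 to 11.61 for G6pc2, 6.08 to 8.22 for Slc2a2, -0.16 to 2.82 for Slc2a1, -0.62 to 1.82 for Hk1 and -3.08 to -0.48 for Hk2. Slc2a1 and Hk1, neighbours in this order, overlapped in range, as did Hk1 and Hk2 at their edges, while Slc2a2 and G6pc2 stood apart from each other and from the rest. Without the length correction the medians were 11.57 log2 CPM (3040 CPM) for G6pc2, 9.61 (782 CPM) for Slc2a2, 3.80 (14.0 CPM) for Slc2a1, 3.13 (8.74 CPM) for Hk1 and 0.72 (1.65 CPM) for Hk2. Counting error was therefore small for Slc2a2 and G6pc2 and largest for Hk2. The lowest Hk2 library, labelled control S961 replicate 4, held 22 reads (exact 95% Poisson interval 13.8 to 33.3, covering counting error only). Control S961 replicate 2 was lowest for both Hk1 and Slc2a1, at 82 and 86 reads (65.2 to 101.8 and 68.8 to 106.2).

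**Figure D1:**
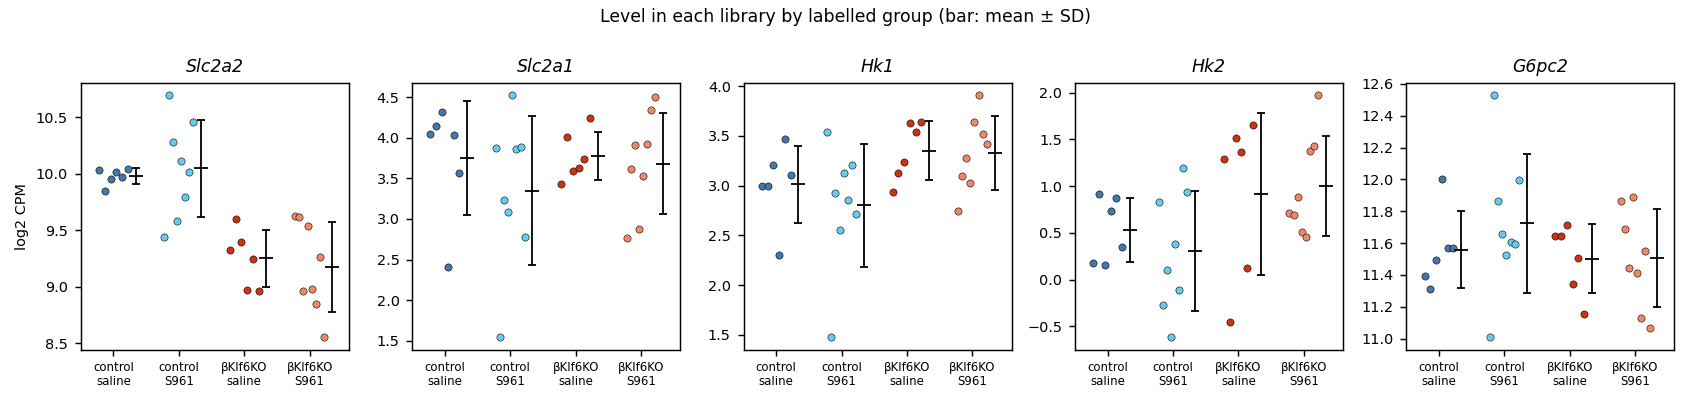
Level of each gene in each library as log2 CPM (vertical axis, a separate scale per panel) by labelled group. Each point is 1 mouse, and the bars beside the points are the mean ± SD. For Slc2a2 the 6 βKlf6KO saline libraries sit between 8.97 and 9.60, all under the control saline libraries, which sit between 9.85 and 10.04. For the other 4 genes the groups overlap.

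Slc2a2 was the member that differed between the labelled genotypes, and it was lower in βKlf6KO islets after either treatment. The gene is ENSMUSG00000027690, at chr3:28697903-28731359 on the plus strand of GRCm38. After saline, control islets had a lowest, median and highest level of 9.85, 9.99 and 10.04 log2 CPM, and βKlf6KO islets had 8.97, 9.28 and 9.60. All 6 control libraries lay within a narrow band and above all 6 βKlf6KO libraries. The log2 difference, βKlf6KO minus control, was -0.73 ± 0.19 (SE; 95% confidence interval -1.12 to -0.33; limma adjusted p = 0.0362), a level 1.66-fold lower. Of the 5 members, 1 was called lower and 0 higher in this comparison, where 0.692% of all tested genes were called lower and 2.09% higher.

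After S961, control islets had a lowest, median and highest Slc2a2 level of 9.44, 10.06 and 10.70 log2 CPM, and βKlf6KO islets had 8.55, 9.12 and 9.62. These groups overlapped, since control replicates 1 and 4 reached down to 9.44 and 9.59, but all 8 βKlf6KO libraries lay below the control mean. The log2 difference was -0.88 ± 0.17 (SE; 95% confidence interval -1.22 to -0.53; limma adjusted p = 0.00611), a level 1.84-fold lower. Here too 1 of 5 members was called lower and 0 higher, against 2.01% and 2.35% of all tested genes.

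S961 itself was not seen to change Slc2a2 in either genotype. The log2 difference, S961 minus saline, was 0.07 ± 0.18 (SE; 95% confidence interval -0.30 to 0.44; limma adjusted p = 0.973) in control islets and -0.08 ± 0.18 (-0.45 to 0.29; adjusted p = 0.9997) in βKlf6KO islets. The difference between these S961 responses was -0.15 ± 0.25 (95% confidence interval -0.67 to 0.37; adjusted p = 1). The spread between mice was wider after S961, with an SD of 0.43 against 0.07 in control islets.

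The saline call rested on a margin that several settings removed, without a change of direction. Leaving out any 1 of the 6 control saline libraries, or βKlf6KO saline replicate 1, 3, 4, 5 or 6, gave a limma adjusted p of 0.0539 to 0.106, with a log2 difference of -0.76 to -0.67. The S961 call held with each of the 28 libraries left out in turn (adjusted p 0.00281 to 0.0199). It was lost when only the 2 groups compared were fitted (-0.88, adjusted p = 0.0704), where 35 of all tested genes were called against 593 as reported. Sample descriptions in the labels carry an L number from 4 to 7, and within each of these the log2 difference after saline was -0.62, -0.46, -1.02 and -0.93. After S961 it was 0.07 within L number 4, against -1.11, -1.14 and -1.32 within 5, 6 and 7, so the lower level was not seen within L number 4, which held 2 libraries of each genotype. Each saline value within an L number, here and below, set 1 library of a genotype against 2 of the other.

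Markers of dividing cells and of some other cell types moved with the labelled genotype beside this difference. All 12 of 12 dividing-cell markers, genes such as Mki67 and Top2a that mark cells in division, were called higher in βKlf6KO islets after saline and 6 of 12 after S961, and none was at 0 in every library. For these and the marker counts below, 2.09% of all tested genes were called higher after saline and 2.35% after S961. Whole-islet RNA does not say which cell type was dividing. The dividing-cell markers were also summed in each library. Their summed level was 7.61 to 37.0 CPM in control saline, 96.8 to 160 in βKlf6KO saline, 8.31 to 118 in control S961 and 47.3 to 82.7 in βKlf6KO S961. With the mean of these markers as a covariate, a setting chosen after the data were seen, the Slc2a2 difference was -0.31 (limma adjusted p = 0.9999) after saline and -0.66 (adjusted p = 0.507) after S961. In that setting 0 of all tested genes were called after saline and 0 after S961, against 378 and 593 as reported. The Slc2a2 difference as reported, without this covariate, was -0.73 after saline and -0.88 after S961. After saline the summed levels of these markers did not overlap between the genotypes, so marker level and genotype cannot be told apart there. The summed level of 13 macrophage markers was 104 to 151 CPM in control saline, 139 to 712 in βKlf6KO saline, 109 to 194 in control S961 and 132 to 401 in βKlf6KO S961. Of 9 lymphocyte markers, 8 had a row, and their summed level was 2.24 to 8.69, 2.66 to 66.6, 1.55 to 12.9 and 1.46 to 27 CPM in the same order. With the macrophage and lymphocyte means as covariates the Slc2a2 difference was -0.16 (adjusted p = 0.640) after saline and -0.57 (adjusted p = 0.0218) after S961. In that setting 77 and 223 of all tested genes were called after saline and after S961. Of 10 fibroblast and stellate cell markers, 2 were called higher after saline and 4 after S961, with list medians of 1.09 and 1.27 on the log2 scale and summed levels of 37.7 to 103, 44.8 to 185, 45.2 to 102 and 80.6 to 153 CPM in the same order. After saline 4 of 12 tested macrophage markers and 2 of 5 tested lymphocyte markers were called higher (list medians 1.02 and 4.14). After S961 no macrophage or lymphocyte marker was called, while 1 of 8 ductal markers was called higher (list median 1.04) and none of 9 tested acinar markers was (list median 1.09). Of 9 α-cell markers, 1 was called higher after each treatment. After S961 1 was also called lower, beside 2.01% of all tested genes. For the fibroblast, ductal, acinar and α-cell markers, their part in the result was not tested.

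**Figure D2:**
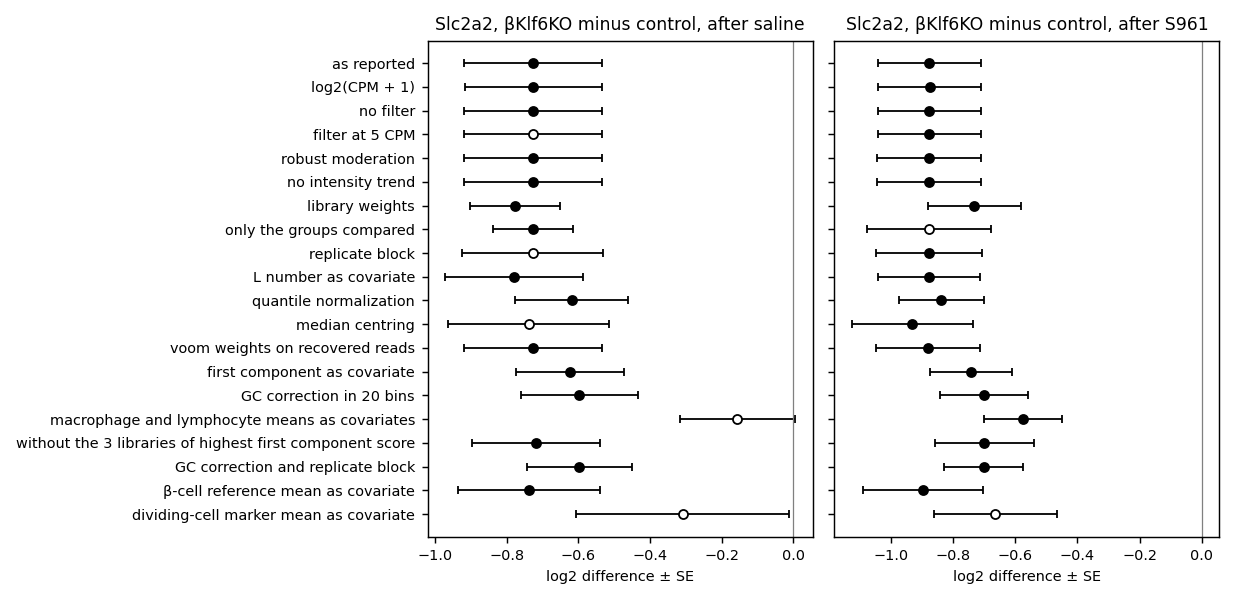
Log2 difference in Slc2a2, labelled βKlf6KO minus control, after saline (left) and after S961 (right), for the fit as reported (top) and each alternative setting; bars are ± SE, filled points have a limma adjusted p below 0.05 and open points do not. Every point lies below 0, from -0.78 to -0.16 after saline and from -0.93 to -0.57 after S961.

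Slc2a2 was also compared with other β-cell RNAs of the same libraries, and relative to these it was lower in βKlf6KO islets after saline. Relative to the mean of 13 β-cell genes used as a reference (among them Ins1, Ins2, Iapp, Abcc8 and Ucn3), it averaged -0.16 ± 0.32 (SD, n = 6) on the log2 scale in control saline islets and -0.70 ± 0.23 (n = 6) in βKlf6KO saline islets. The difference was -0.53 ± 0.16 (SE; exact two-sided permutation test p = 0.00649, adjusted 0.0260 over 20 such tests), and all 6 βKlf6KO libraries lay below the control mean. After S961 the means were -0.06 ± 0.64 (n = 8) and -0.57 ± 0.35 (n = 8), a difference of -0.51 ± 0.26 (SE) that did not pass (exact p = 0.0699, adjusted 0.175). Much of this S961 difference came from control S961 replicates 2 and 8, at 0.98 and 0.83, with the next control library at -0.05. Their Ins2 level, part of the reference, was low, as given above. Leaving them out together with control saline replicate 4 brought the S961 difference to -0.18, which did not pass either. Within L numbers 4, 5, 6 and 7 the saline difference was -0.008, -0.22, -0.99 and -0.69. The S961 difference was 0.52 within L number 4, the opposite direction, and -0.79, -0.59 and -1.16 within 5, 6 and 7. Ins1, a reference gene, also carries the Cre allele in βKlf6KO mice and so differs between the genotypes by design. With Ins1 and Ins2 left out of the reference, all 20 tests kept their sign and passed or failed as before. The reference itself was not level, since 1 of its 13 genes was called lower after saline and 4 after S961, beside 0.692% and 2.01% of all tested genes. Sytl4, a granule docking protein, was lower after both (-0.75 and -0.90, limma adjusted p = 0.0277 and 0.00511). The zinc transporter Slc30a8 (-0.49, adjusted p = 0.0242), the cation channel Trpm5 (-0.51, adjusted p = 0.0316) and the prolactin receptor Prlr (-0.90, adjusted p = 0.0479) were called lower after S961.

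The start of Slc2a2 and those of 2 other members are printed because KLF6 belongs to a family of factors that bind CACCC and GC-rich boxes. The windows are the 250 bases before each start site, credited to RefSeq on GRCm38.p6, on the plus strand, written 5′ to 3′. Capitals mark CACCC or GGGCGG on either strand (so GGGTG and CCGCCC as well). They lie at chr3:28697653-28697902 for Slc2a2, chr2:69210823-69211072 for the first listed start of G6pc2 and chr4:119108495-119108744 for Slc2a1.
Slc2a2: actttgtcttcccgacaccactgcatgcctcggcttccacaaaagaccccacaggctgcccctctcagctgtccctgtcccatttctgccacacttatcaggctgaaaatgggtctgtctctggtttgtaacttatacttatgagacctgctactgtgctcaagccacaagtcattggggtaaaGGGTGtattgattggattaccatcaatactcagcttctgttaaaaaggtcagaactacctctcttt
G6pc2: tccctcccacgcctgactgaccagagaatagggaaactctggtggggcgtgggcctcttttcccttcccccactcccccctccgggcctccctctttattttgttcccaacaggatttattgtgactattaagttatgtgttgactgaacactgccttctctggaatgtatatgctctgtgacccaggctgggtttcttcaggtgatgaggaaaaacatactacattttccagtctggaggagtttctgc
Slc2a1: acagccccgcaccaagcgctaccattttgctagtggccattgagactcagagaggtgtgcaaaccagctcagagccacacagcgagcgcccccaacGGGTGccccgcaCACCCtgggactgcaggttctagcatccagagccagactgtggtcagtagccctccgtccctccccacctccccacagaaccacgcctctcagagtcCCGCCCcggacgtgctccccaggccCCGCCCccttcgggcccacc
The Slc2a2 window held 1 CACCC match and no GGGCGG match, the window at the first G6pc2 start held neither, and the Slc2a1 window held 2 of each. At the second listed G6pc2 start, chr2:69219699-69219948, the window held 3 CACCC matches and no GGGCGG match. The first listed Hk1 start had neither motif, the second had 4 CACCC and no GGGCGG matches, and Hk2 had 2 and 3. Over all 32851 windows of the same length, 52.0% held a CACCC match and 32.7% a GGGCGG match on either strand, so matches of this kind are common. The Slc2a2 and G6pc2 windows had a GC content of 47.2% and 50%, below the median of 52.4% over all windows, and Slc2a1 had 66.4%. Both Hk2 (69.6%) and the second listed Hk1 start (62.8%) were GC-rich as well, while the first listed Hk1 start was at 49.6%. These matches describe letters only, and no binding was measured.

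Slc2a1, the other transporter, was not called in any comparison. The gene is ENSMUSG00000028645, at chr4:119108711-119137983 on the plus strand. Its lowest, median and highest levels were 2.42, 4.03 and 4.31 log2 CPM in control saline, 1.54, 3.55 and 4.53 in control S961, 3.43, 3.69 and 4.24 in βKlf6KO saline and 2.77, 3.76 and 4.50 in βKlf6KO S961. All 4 groups overlapped, and the lowest values were those of control S961 replicate 2 and control saline replicate 4. The log2 difference, βKlf6KO minus control, was 0.02 ± 0.38 (SE; 95% confidence interval -0.76 to 0.81; limma adjusted p = 0.984) after saline and 0.33 ± 0.33 (-0.35 to 1.01; adjusted p = 0.556) after S961. These intervals are wide enough to hold a change as large as that of Slc2a2 in either direction after saline. Of all members, Slc2a1 followed the first component most closely (r = -0.95 over 28 libraries, -0.90 without the 2 libraries farthest from the median score). With that component as a covariate the saline difference was -0.30 (adjusted p = 0.0481), so its sign and call depended on this choice. In that setting 2821 of all tested genes were called, against 378 as reported. Within L numbers 4, 5, 6 and 7 the saline difference was -0.66, -0.51, 0.41 and 0.43, and the S961 difference was -0.66, 0.53, 0.36 and 1.09, so neither kept 1 sign.

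Hk1 and Hk2 had higher means in βKlf6KO islets, but neither was called. Hk1, ENSMUSG00000037012 at chr10:62268855-62379908 on the minus strand, had a lowest, median and highest level of 2.31, 3.05 and 3.47 log2 CPM in control saline and 2.93, 3.39 and 3.64 in βKlf6KO saline. After S961 it had 1.48, 2.89 and 3.54 in control islets and 2.75, 3.35 and 3.91 in βKlf6KO islets. The βKlf6KO minus control log2 difference was 0.34 ± 0.25 (SE; limma adjusted p = 0.620) after saline and 0.53 ± 0.22 (95% confidence interval 0.08 to 0.97; adjusted p = 0.149) after S961. In the latter, 7 of 8 βKlf6KO libraries lay above the control mean, and the lowest control library was replicate 2, which has the highest first component score. Within L numbers 4, 5, 6 and 7 the S961 difference was -0.16, 1.07, 0.70 and 0.50, so its direction did not hold within L number 4.

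Hk2, ENSMUSG00000000628 at chr6:82725025-82774454 on the minus strand, had a lowest, median and highest level of 0.16, 0.53 and 0.91 log2 CPM in control saline and -0.46, 1.32 and 1.65 in βKlf6KO saline. After S961 it had -0.62, 0.24 and 1.19 in control islets and 0.45, 0.80 and 1.98 in βKlf6KO islets. The log2 difference was 0.38 ± 0.35 (SE; limma adjusted p = 0.712) after saline. After S961 it was 0.70 ± 0.30 (95% confidence interval 0.08 to 1.32; adjusted p = 0.166), with 8 of 8 βKlf6KO libraries above the control mean and overlapping groups. Within L numbers 4 to 7 this S961 difference was 0.51, 0.52, 1.14 and 0.64. At 22 to 119 reads per library, Hk2 was the least precisely counted member.

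G6pc2, the phosphatase that reverses the hexokinase step, was not called in any comparison. The gene is ENSMUSG00000005232, at chr2:69211073-69227841 on the plus strand. Its lowest, median and highest levels were 11.31, 11.53 and 12.00 log2 CPM in control saline, 11.01, 11.64 and 12.53 in control S961, 11.16, 11.58 and 11.72 in βKlf6KO saline and 11.06, 11.50 and 11.89 in βKlf6KO S961. The groups overlapped throughout, and the highest values were again those of control S961 replicate 2 and control saline replicate 4. The βKlf6KO minus control log2 difference was -0.06 ± 0.19 (SE; 95% confidence interval -0.45 to 0.34; limma adjusted p = 0.934) after saline and -0.22 ± 0.17 (-0.56 to 0.12; adjusted p = 0.431) after S961. Within L numbers 4, 5, 6 and 7 the difference was 0.29, 0.19, -0.45 and -0.24 after saline. The S961 difference was 0.54 within L number 4 against -0.48, -0.45 and -0.49 within the others, so its sign was not the same throughout. Over all libraries after saline the interval leaves out a fall as large as the point estimate for Slc2a2.

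S961 against saline gave no call for any member. The share of tested genes called was 0% higher and 0% lower in control islets, in βKlf6KO islets and for the difference of the S961 responses, all by limma. At an unadjusted p below 0.05, 104, 413 and 350 of 13591 genes passed in these 3 comparisons, and none of them was a member. In control islets the S961 minus saline log2 differences were -0.40 ± 0.36 (SE) for Slc2a1, -0.21 ± 0.24 for Hk1, -0.23 ± 0.33 for Hk2 and 0.17 ± 0.18 for G6pc2. In βKlf6KO islets they were -0.09 ± 0.36, -0.02 ± 0.24, 0.09 ± 0.33 and 0.00 ± 0.18 in the same order. The 95% confidence intervals for Slc2a1 in control islets (-1.13 to 0.33) and βKlf6KO islets (-0.82 to 0.64) show how large a response could have gone unseen.

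The ratio of G6pc2 to Slc2a2 RNA was higher in βKlf6KO islets, with an SD below that of either gene alone in 3 of the 4 groups (in control saline islets Slc2a2 alone varied less). This ratio, taken within each library, needs no scaling between libraries. It is not separate from the lower Slc2a2, which alone differed by -0.73 after saline and -0.88 after S961. G6pc2 alone differed by -0.06 and -0.22 and was not called. After saline the log2 ratio was 1.58 ± 0.22 (SD, n = 6; range 1.36 to 1.99) in control islets and 2.25 ± 0.12 (n = 6; range 2.04 to 2.37) in βKlf6KO islets, and the groups did not overlap. The difference was 0.67 ± 0.10 (SE; exact two-sided permutation test p = 0.00216, adjusted 0.0144 over 20 tests). After S961 it was 1.67 ± 0.21 (n = 8; range 1.41 to 2.07) in control islets and 2.33 ± 0.14 (n = 8; range 2.07 to 2.51) in βKlf6KO islets. Only control S961 replicate 4 reached the lowest βKlf6KO library. That difference was 0.66 ± 0.09 (SE; exact p = 0.000311, adjusted 0.00622). Within L numbers 4, 5, 6 and 7 the saline difference was 0.91, 0.64, 0.58 and 0.70. The S961 difference was 0.48, 0.63, 0.69 and 0.83 within them, so the sign was the same within each, L number 4 included. Each of the saline values again set 1 library against 2.

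The ratio of Hk1 to Slc2a2 was also higher in βKlf6KO islets. It is not separate from the lower Slc2a2, which alone differed by -0.73 after saline and -0.88 after S961. Hk1 alone differed by 0.34 and 0.53 and was not called. After saline the log2 ratio was -6.96 ± 0.41 (SD, n = 6) in control and -5.90 ± 0.51 (n = 6) in βKlf6KO islets, with no overlap, a difference of 1.06 ± 0.27 (SE; exact permutation p = 0.00216, adjusted 0.0144). After S961 it was -7.25 ± 0.95 (n = 8) and -5.85 ± 0.72 (n = 8), a difference of 1.40 ± 0.42 (SE; exact p = 0.00389, adjusted 0.0194), with overlapping groups. Within L number 4 the S961 difference was -0.23, against 2.17, 1.84 and 1.83 within 5, 6 and 7. Slc2a2 relative to Slc2a1 had a lower mean in βKlf6KO islets, by -0.75 ± 0.35 (SE) after saline and -1.21 ± 0.55 after S961, but neither passed (exact p = 0.0281 and 0.0420, adjusted 0.0938 and 0.120). The Slc2a2 to Slc2a1 differences within L numbers 4 to 7 were 0.04, 0.06, -1.43 and -1.36 after saline, and after S961 they were 0.72, -1.64, -1.50 and -2.41. G6pc2 relative to the β-cell reference differed by 0.14 ± 0.24 after saline (exact p = 0.597) and 0.15 ± 0.26 after S961 (exact p = 0.569). Without the 3 libraries of highest component score, which include control S961 replicates 2 and 8, the latter was 0.48 and passed (exact p = 0.00633, adjusted 0.0422). Without them the S961 difference of Hk1 to Slc2a2 was 0.99 and no longer passed (exact p = 0.0183, adjusted 0.0611). No ratio passed for S961 against saline (10 of the 20 tests, smallest exact p = 0.194).

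**Figure D3:**
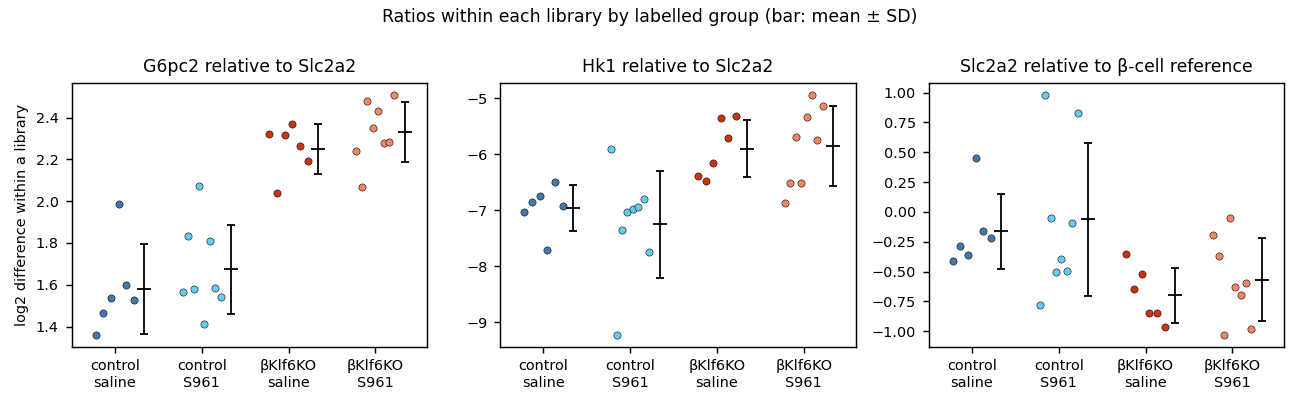
Log2 ratios within each library by labelled group: G6pc2 to Slc2a2 (left), Hk1 to Slc2a2 (centre) and Slc2a2 to the mean of 13 β-cell genes (right). Each point is 1 mouse, and the bars are the mean ± SD. In the left panel the control libraries range from 1.36 to 2.07 and the βKlf6KO libraries from 2.04 to 2.51.

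Within groups, Slc2a2 and G6pc2 varied together from mouse to mouse. After each gene was centred on its group means, their Pearson r over 28 libraries was 0.86 and Spearman rho 0.83 (permutation p = 1e-05 for each, the smallest that 100000 resamples give). Adjusted over 10 pairs, the p for r was 2.5e-05, and r was 0.81 without the 2 libraries farthest from the median. Slc2a1 and Hk1 also varied together (r = 0.80, rho = 0.69, adjusted permutation p = 2.5e-05 and 0.0003; r = 0.61 without the 2 farthest). Between these pairs the relations were negative: r was -0.82 for Slc2a1 and G6pc2, -0.84 for Hk1 and G6pc2, -0.63 for Slc2a2 and Hk1, and -0.56 for Slc2a2 and Slc2a1. The 4 pairs with Hk2 did not pass (r from -0.38 to 0.37), but this depended on the setting. Without centring on group means, r of Hk2 was -0.54 with Slc2a2, 0.51 with Hk1 and -0.45 with G6pc2 (adjusted permutation p = 0.00515, 0.00739 and 0.0185), and these 3 passed.

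These relations moved with the first component, whose gene loadings followed GC content. Transcript GC was 41.7% for Slc2a2 and 44.9% for G6pc2, and 54.0%, 56.4% and 51.9% for Slc2a1, Hk1 and Hk2. Uncentred, r with the component was 0.59 for Slc2a2, 0.85 for G6pc2, -0.95 for Slc2a1, -0.80 for Hk1 and -0.25 for Hk2. Without the 2 farthest libraries these were 0.45, 0.73, -0.90, -0.56 and -0.12. With the component removed, r between Slc2a2 and G6pc2 was 0.79 (adjusted permutation p = 0.0001) and between Hk1 and G6pc2 -0.55 (adjusted p = 0.0077), and both pairs still passed. That between Slc2a1 and G6pc2 was then -0.08, between Slc2a1 and Hk1 0.27, between Slc2a2 and Hk1 -0.30, and between Slc2a2 and Slc2a1 0.13, none of which passed. Of the pairs with Hk2, 3 passed once the component was removed: r was 0.60 with Slc2a1 (adjusted permutation p = 0.003), 0.44 with Hk1 (adjusted p = 0.041) and -0.50 with G6pc2 (adjusted p = 0.0159).

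**Figure D4:**
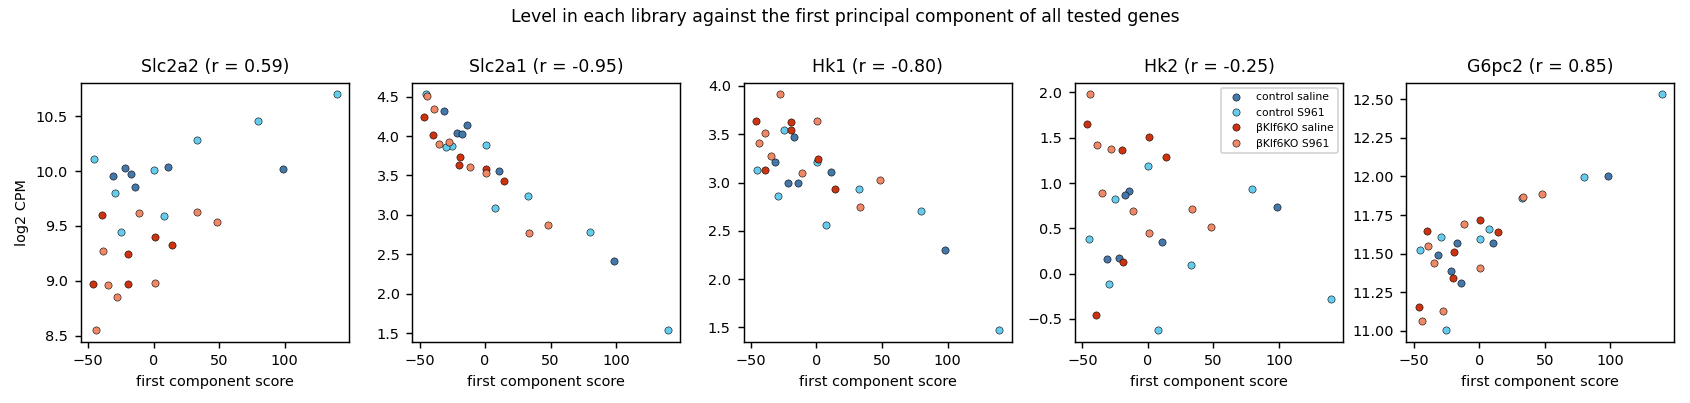
Level of each gene in each library (vertical axis, log2 CPM) against the library's score on the first principal component of all tested genes (horizontal axis, no unit), coloured by labelled group; r in each title is over all 28 libraries. Slc2a1 and Hk1 are lower and G6pc2 is higher at higher scores. In the Slc2a2 panel the βKlf6KO libraries range from 8.55 to 9.62 and the control libraries from 9.44 to 10.70.

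The genes whose group-centred levels were most like each member were named by r over 28 libraries, among 10292 genes that averaged 4 CPM or more. All of them come from the same libraries and so share their depth, and the values are a description. Their transcript GC content can differ from the member's. For Slc2a2 they were Pfkfb2 (r = 0.91), which makes and removes the glycolytic activator fructose 2,6-bisphosphate, Slc30a8 (0.89), and the zinc finger gene Zfp568 (0.87). With the component removed these were 0.85, 0.81 and 0.83. Zfp568 was also called lower in βKlf6KO islets after saline (-0.46 ± 0.10 SE, limma adjusted p = 0.00917) and after S961 (-0.39 ± 0.09, adjusted p = 0.0174).

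For G6pc2 they were Spc25, a kinetochore subunit, Tmem65 and Chic1, each at r = 0.95. Spc25 is the gene next to G6pc2 on chromosome 2, at chr2:69193895-69206194 on the minus strand of GRCm38, with a gap of 4878 bases between the 2 annotated genes. Its median level was 8.22 log2 CPM, and it was not called between the labelled genotypes (0.16 ± 0.27 SE, limma adjusted p = 0.866, after saline and -0.11 ± 0.23, adjusted p = 0.773, after S961). For Slc2a1 the 3 genes were Tkt, a transketolase of the pentose phosphate pathway, Pgs1 and Efhd2 (each r = 0.98, and 0.71 to 0.72 with the component removed). For Hk1 they were Trap1, a mitochondrial chaperone, Pdgfb and Lgals1 (each r = 0.90). For Hk2 they were Rbm22, Litaf and the TGF-β receptor Tgfbr2 (r = 0.85, 0.81 and 0.81), and removing the component left these at 0.85, 0.81 and 0.84.

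Other genes around this step were examined in 4 lists with 51 tested genes. After saline 2 of these 51 were called lower (3.92%) and 0 higher, beside 0.692% and 2.09% of all tested genes. After S961 2 were called lower (3.92%) and 1 higher (1.96%), beside 2.01% and 2.35%. With 2 to 3 calls among 51 genes, nothing is read from these counts about the lists. Of 9 tested genes of sugar phosphorylation and dephosphorylation, 1 was called lower and 0 higher after each treatment, the bifunctional enzyme Pfkfb2. It averaged 6.12 log2 CPM in control and 5.43 in βKlf6KO islets after saline, without overlap (-0.69 ± 0.14 SE, limma adjusted p = 0.00569), and 6.12 and 5.40 after S961 (-0.71 ± 0.12, adjusted p = 0.00458). The list median was 0.17 on the log2 scale after saline and 0.17 after S961, beside 0.00 and 0.02 over all tested genes. Of 10 other hexose transporters, none was called after saline, the smallest p being that of the sodium-coupled Slc5a1 (-0.44, adjusted p = 0.305). After S961, 1 was called higher, Slc2a9, which carries urate and hexoses (0.45 ± 0.13, adjusted p = 0.0452). The list medians were 0.11 and 0.35.

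None of 15 tested glycolytic genes below glucose 6-phosphate was called after either treatment (list medians 0.23 and 0.15). The smallest p was that of the kinase Pgk1 after saline (0.19, limma adjusted p = 0.312) and of the isomerase Tpi1 after S961 (0.26, adjusted p = 0.513). Of 17 genes on other routes of glucose 6-phosphate (the pentose phosphate, glycogen and hexosamine pathways), 1 was called lower and 0 higher after each treatment (list medians 0.04 and 0.10). After saline it was Rpia, the ribose 5-phosphate isomerase (-0.37 ± 0.09 SE, adjusted p = 0.0240), which after S961 was at -0.27 (adjusted p = 0.0508). After S961 it was Gfpt1, the first enzyme of the hexosamine pathway (-0.58 ± 0.14, adjusted p = 0.0249), which after saline was at -0.49 (adjusted p = 0.123).

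Transcription factors known to act on Slc2a2 or G6pc2 in β cells were examined as a list of 14 tested genes. After saline 1 was called lower and 0 higher, and after S961 2 were called lower and 0 higher (list medians -0.10 and -0.29). Of all tested genes 0.692% and 2.01% were called lower, and 2.09% and 2.35% higher, in the same order. With 1 to 2 calls among 14 genes, nothing is read from these counts about the list. Nkx6-1, a factor that maintains β-cell identity, was lower after both treatments (-0.48 ± 0.12 SE, limma adjusted p = 0.0311, and -0.43 ± 0.11, adjusted p = 0.0249). Pdx1, an activator of Slc2a2 and of the insulin genes, averaged 6.995 log2 CPM in control and 6.52 in βKlf6KO islets after S961, without overlap (-0.47 ± 0.08, adjusted p = 0.00450). After saline Pdx1 was at -0.26 ± 0.09 (adjusted p = 0.143). Of 8 factors known to act on Slc2a1 and Hk2, none was called after either treatment, with Mlx at 0.18 (adjusted p = 0.212) after saline and Myc at 0.71 ± 0.23 (adjusted p = 0.0735) after S961. In the comparisons of S961 with saline no gene of any of these lists was called.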

How the data were processed

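The authors deposited 1 table of log2 CPM values of 14219 genes in 28 libraries, made with STAR 2.5.3a, HTSeq 0.9.1 and edgeR on GRCm38 (per the submitters' processing notes). Per the labels' protocols, libraries were stranded and poly(A)-selected, with 125-base single reads. The strand setting of the counting was not given in the sources used here. The deposited values followed log2 of reads plus 0.5 over a scaled library size. Inverting this gave whole reads, within 0.05, for 100% of values. A count of 0 allows up to 3 reads, or 0.0685 to 0.105 CPM (counting error only). A filter of 1 CPM in 6 or more libraries removed 628 genes and left 13591. Group means were fitted over all 28 libraries with limma 3.58.1 (R 4.3.3) with an intensity trend, two-sided, with Benjamini-Hochberg adjustment. Since the unit is log2, no count model was used beyond voom weights. Ratios were compared with exact permutation tests (20 in the family) and pairs of members by permutation tests in a family of 10, because only 5 members had a row. Each library was a separate mouse. Positions and GC content are from GENCODE M21. The members, gene lists and tests were chosen with earlier results of these data known. Named genes were the members, Klf6, Ins1 and Ins2, up to 3 called genes of smallest p per list (or the 1 of smallest p), and the 3 genes most correlated with each member. 1 gene of the pathway lists is not reported here and was left out of its list. Other genes were named for context after their values were seen. Simulated data with known changes were used to check the fit. Alternatives covered the floor, filter, moderation, weights, scaling, GC content, L number, replicate number, markers of dividing and other cells, and each library left out.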

Additional observations from a re-analysis of the deposited data

Results flagged for a closer look

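A total of 40 groups of values (5 genes and 5 ratios in 4 labelled groups) were examined for a library far from the others of its group, and chance marks about 1 in 20 such groups. There were 3 such values, all highest in control saline replicate 4, which has the second highest first component score. G6pc2 was at 12.00 log2 CPM there, with the next library at 11.57. G6pc2 relative to the mean of the β-cell reference was at 2.44 on the log2 scale, with the next library at 1.44. Slc2a2 relative to that mean was at 0.45, with the next library at -0.16, while its own level of 10.02 lay within the group. Without this library the βKlf6KO minus control difference after saline of Slc2a2 relative to the reference was -0.41 (exact permutation test adjusted p = 0.0433), and that of G6pc2 relative to the reference was 0.34 (adjusted p = 0.115).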

How the results depend on the processing

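Slc2a2 was lower in βKlf6KO islets under all 47 alternatives tried for each treatment. Its call held in 31 of 47 after saline and 45 of 47 after S961. Many of the 47 could not change the difference itself, only its adjusted p. These were the filters, moderation, the replicate block, the fit of only the compared groups, and leaving out a library of a group not compared. The 47 are therefore not separate checks. The number of members called after saline, 1 as reported, was 0 with a filter at 5 CPM (Slc2a2 adjusted p = 0.0586), with the replicate block (0.0528), with median centring (0.0810), and with the macrophage and lymphocyte or dividing-cell covariates, and 0 to 1 with each library left out. Over all genes tested, the filter, block, centring and these covariates left 117, 354, 314, 77 and 0 calls in that order, against 378 as reported. It was 2 with the first component as a covariate, where Slc2a1 joined. After S961 the number of members called was 0 when only the compared groups were fitted and with the dividing-cell covariate. Of all tested genes 35 and 0 were called there, against 593 as reported. It was 3 with the β-cell reference mean as a covariate, where Slc2a1 (0.95, adjusted p = 0.00880) and Hk1 (0.78, adjusted p = 0.00619) joined. The dividing-cell and reference covariates, and the GC correction combined with the replicate block, were chosen after seeing the data. No other alternative changed these counts of members. The number of ratio tests past the threshold, 5 of 20, was 8 with quantile normalization and 5 with each library left out. The 3 tests gained were Slc2a2 to Slc2a1 after saline (-0.57) and after S961 (-1.04) and Slc2a2 to the reference after S961 (-0.54). Without the 3 libraries of highest component score the count stayed at 5 but not the tests: Hk1 to Slc2a2 after S961 was lost (0.99, adjusted p = 0.0611) and G6pc2 to the reference after S961 was gained (0.477, adjusted p = 0.0422). Among the 10 pairs of members, the calls of 3 pairs were lost and 3 gained with the component removed, besides the pair that changed sign, and 3 were gained without centring. The G6pc2 to Slc2a2 ratio passed in both genotype comparisons under all 31 of its alternatives (0.63 to 0.75 after saline, 0.48 to 0.71 after S961). Of these, 28 left out 1 library, and leaving out a library of a group not compared could not change the difference. Nor could the reference without Ins1 and Ins2. No covariate, replicate block or GC correction was tried on the ratios. The cause of the changes between settings was not tested.

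Replicate numbers from the labels did not pair the mice: of 38 same-number pairs, 13 had a correlation over 0.1 (range -0.71 to 0.85). In the fit with the replicate block the Slc2a2 differences stayed at -0.73 and -0.88, the latter with adjusted p = 0.0123, and Hk2 for S961 against saline in βKlf6KO islets changed sign to -0.151.

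The remaining sign changes were of values that were not called as reported, and the cause was not tested. For βKlf6KO against control after saline, Slc2a1 (0.025 as reported) was -0.045 with quantile normalization, -0.242 without the 3 libraries of highest component score, -0.332 with library weights, -0.304 with the first component, -0.048 with the GC correction alone or with the replicate block, -0.686 with the macrophage and lymphocyte covariates, -0.087 with the dividing-cell covariate and -0.048 with the L number. G6pc2 (-0.055 as reported) was 0.061, 0.035, 0.034, 0.078, 0.026, 0.413 and 0.051 under the first 7 of these settings. With the macrophage and lymphocyte covariates Hk1 was -0.141 and Hk2 -0.271 after saline, and Slc2a1 was -0.262 and G6pc2 0.087 after S961. Slc2a1 after S961 was -0.065 without the 3 libraries and -0.098 with the first component.

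For S961 against saline in control islets, Slc2a2 was -0.096 without the 3 libraries, -0.068 with library weights, -0.037 with the GC correction and -0.036 with that correction and the replicate block. Relative to the reference it was -0.098 without the 3 libraries. In βKlf6KO islets, G6pc2 (0.002 as reported) was -0.225 with quantile normalization, -0.011 with library weights, -0.002 with median centring, -0.001 with voom weights, -0.051 with the first component, -0.041 with the GC correction, -0.026 with it and the replicate block, -0.115 with the macrophage and lymphocyte covariates, -0.089 with the reference mean and -0.027 with the dividing-cell covariate. Hk1 there was 0.046 with the first component, 0.064 with the GC correction, 0.030 with it and the replicate block, 0.037 with the macrophage and lymphocyte covariates, 0.118 with the reference mean and 0.013 with the dividing-cell covariate. Hk2 there was -0.067 with library weights, -0.144 with the GC correction and replicate block, -0.081 with the reference mean and -0.057 with the dividing-cell covariate. Slc2a1 there was 0.076 with library weights, 0.039 with the first component and 0.254 with the reference mean. The Slc2a2 difference of S961 responses was 0.019 without the 3 libraries and 0.045 with library weights. With quantile normalization, S961 against saline in βKlf6KO islets gave -0.044 for Slc2a2 to Slc2a1, -0.118 for G6pc2 to Slc2a2 and -0.066 for G6pc2 to the reference, and G6pc2 to the reference after S961 was -0.061 between genotypes. With the component removed, r of Slc2a2 and Slc2a1 was 0.129.

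With each library left out in turn, S961 against saline in βKlf6KO islets ranged from -0.067 to 0.065 for G6pc2, -0.107 to 0.061 for Hk1, -0.182 to 0.239 for Hk2, -0.209 to 0.038 for Slc2a1, -0.141 to 0.012 for Slc2a2, -0.076 to 0.202 for Hk1 to Slc2a2 and -0.18 to 0.221 for Slc2a2 to Slc2a1. In control islets it ranged from -0.021 to 0.158 for Slc2a2 and from -0.048 to 0.225 for Slc2a2 to the reference. Between genotypes after saline it ranged from -0.242 to 0.137 for Slc2a1 and from -0.104 to 0.035 for G6pc2. Depth limited Hk2 most.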
